A study of Mus musculus with 2 samples.

Results

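The Slc25 genes encode the mitochondrial carriers, and they were read in 2 long-read RNA libraries of mouse adrenal gland. Members were all annotated genes whose symbol is Slc25a followed by a number and nothing else. GENCODE M21 annotates 47 of them, and 42 had at least 1 read among the 18168 annotated mouse genes with reads in either library. Of these 42, 39 were read in both libraries and 3 in only 1. Replicate 1 held 40 members and replicate 2 held 41.

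The tissue came from male B6CASTF1/J mice aged 25 days, a first-generation cross of the C57BL/6 and CAST strains, and the labels name no transgene or knockout. No treatment is named, so the libraries form 1 group, numbered as replicates 1 and 2, and no condition was compared with another. The labels leave unclear whether the libraries came from separate animals: the library notes point to the same animal and the tissue notes to different ones. The spread between these libraries may therefore hold no variation between animals, and their tissue makeup also differed, as given below. An RNA input of 1 µg is given for replicate 2 alone.

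Mitochondrial carriers are small proteins of the inner membrane that move nucleotides, phosphate, metabolic acids, amino acids, cofactors and metals between the cytosol and the matrix. The membrane is otherwise tight to these solutes, so the carriers connect the metabolism of the cytosol to respiration. In the adrenal cortex the mitochondria also hold the first and last steps of steroid synthesis, which use reducing power made from such acids in the matrix. In liver the family is known for its members in the urea cycle and in fatty acid oxidation.

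Replicate 1 had 752432 reads in annotated mouse genes and replicate 2 had 1210671. Levels are reads per 1000000 of these gene reads (CPM). A long read spans a transcript and is counted once, so CPM here has no length term. Copies made by PCR may be among the reads. A count of 0 allows up to 3 reads, which is 3.99 CPM in the first library and 2.48 CPM in the second. A level with ± is a mean with its SD (n = 2 libraries), and intervals are 95% and cover counting error only.

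The makeup of the libraries differed beyond the adrenal gland. The sum of 8 adrenal cortex markers was 63352 CPM (replicate 1) and 25828 CPM (replicate 2), and adrenal medulla markers (6 genes) to 11505 and 7816 CPM, with all markers of both lists read in each library. Liver markers (10 genes) summed to 5.32 CPM in replicate 1, with Ttr, Ahsg, Apoa1, Gc, Fgb, Apoc3, Tat and Cps1 at 0, and to 49416 CPM in replicate 2 with none at 0. Skeletal muscle markers (10 genes) summed to 4136 CPM in replicate 1 with none at 0, and to 1.65 CPM in replicate 2, with Acta1, Ckm, Tnnt3, Tnni2, Tnnc2, Atp2a1, Pvalb and Myh4 at 0. Fat markers (8 genes) summed to 4228 and 3043 CPM with none at 0, and kidney markers (5 genes) to 0 and 1.65 CPM. In tissue RNA, fewer cells of a type and less RNA per cell cannot be told apart.

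The family took 4254 reads in replicate 1 and 6472 in replicate 2. These were 5654 and 5346 CPM (0.565% and 0.535% of gene reads), a log2 ratio of replicate 2 to replicate 1 of -0.08 ± 0.03 (counting SE). The sign turned under other scalings, to 0.27 with edgeR's TMM factors and 0.32 with DESeq2's size factors. These place the point of no change at -0.35 and -0.40 on this scale, near the median of all 11382 genes tested (-0.34). The 5 most abundant members held 63.7% of the family's reads in replicate 1 and 56.8% in replicate 2. A mean of at least 50 CPM was reached by 21 members.

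**Figure D1:**
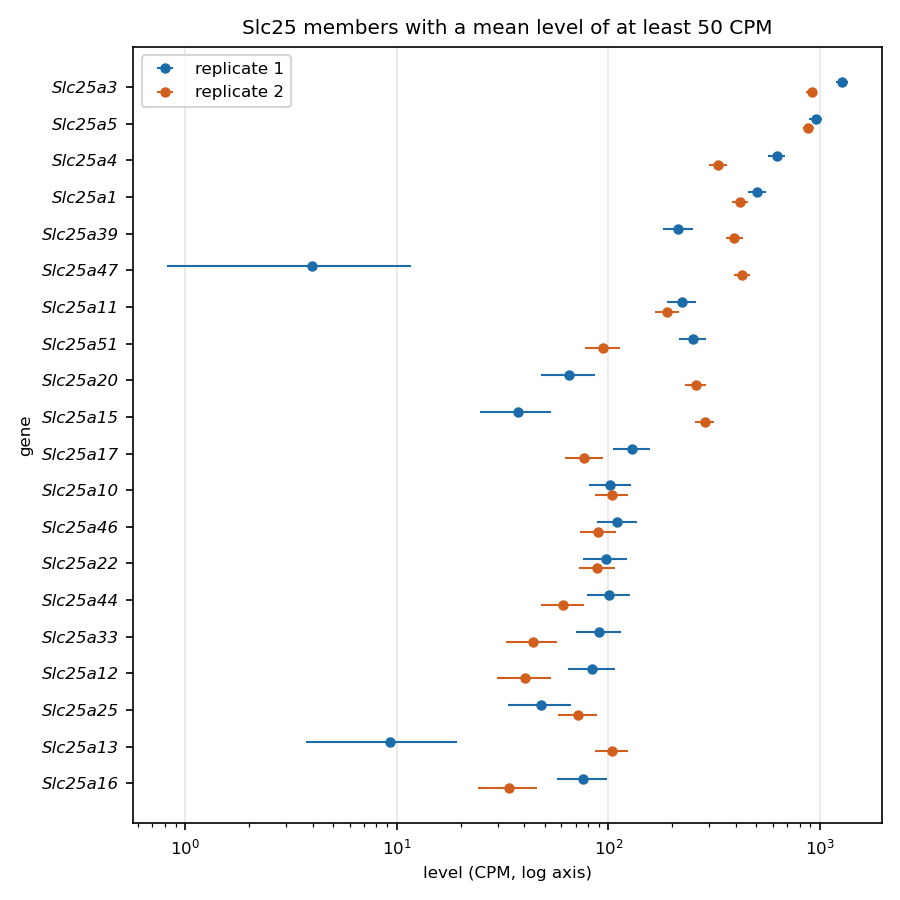
Level of 20 members with a mean of at least 50 CPM (horizontal axis, CPM on a log axis) in replicate 1 (blue) and replicate 2 (orange), with 95% Clopper-Pearson intervals as bars. Slc25a3 and Slc25a5 lead in both libraries, and Slc25a47 is the member with the widest gap, at 3.99 and 427 CPM.

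For the comparison of the libraries, 37 members had at least 10 reads over both. A gene was called higher or lower in replicate 2 at an adjusted p under 0.05. Reads of the gene and of all others entered a two-sided exact test of Fisher, adjusted by Benjamini-Hochberg over every gene tested. This test compares these libraries and no conditions. Of the 37 members, 6 were called higher, beside 11.5% of all genes tested, and 13 lower, beside 25.3%. The other 18 were not called. With a difference of at least 2-fold, 5 were higher and 6 lower, beside 8.96% and 15.5% of all genes. The median log2 ratio of the tested members was -0.31.

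The split of calls followed the scaling: 8 members were higher and 8 lower with TMM factors, beside 17.7% and 13.7% of all genes, and 8 higher and 6 lower with DESeq2's size factors, beside 19.3% and 12.2%. All 6 members called higher stayed so under both. Of the 13 lower ones, Slc25a1, Slc25a3, Slc25a17, Slc25a28 and Slc25a44 lost the call under both, and Slc25a12 and Slc25a33 under DESeq2's size factors as well. Slc25a5 and Slc25a25 were gained as higher.

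**Figure D2:**
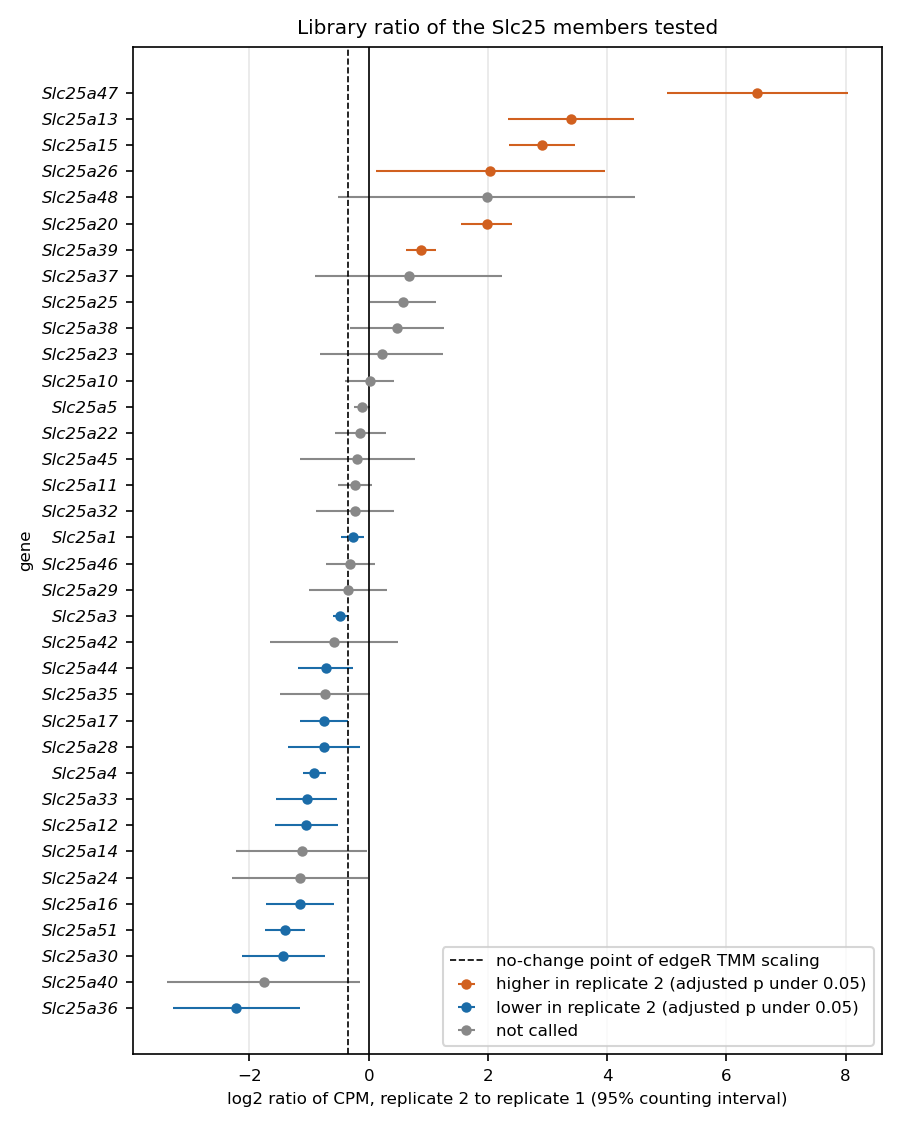
Log2 ratio of CPM, replicate 2 to replicate 1 (horizontal axis), for 36 of the members tested, with 95% counting intervals as bars and colour by call. The solid line marks equal CPM and the dashed line the no-change point of TMM scaling (-0.35). Slc25a47, Slc25a13, Slc25a15, Slc25a26, Slc25a20 and Slc25a39 are the members called higher.

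The carriers of ADP, ATP and phosphate gave the largest share of the family, 2929 CPM (replicate 1) and 2223 CPM (replicate 2). Of 6 tested members, none was called higher and 2 were called lower, beside 11.5% and 25.3% of all genes tested. Slc25a3 is the phosphate carrier that supplies ATP synthase, and it was the most abundant member in both libraries. It had 957 reads (1272 CPM) in replicate 1 and 1107 reads (914 CPM) in replicate 2, ranks 62 and 120 among all genes. Replicate 1 was the higher, at a log2 ratio of -0.48 ± 0.06 (adjusted p = 1.75e-12 by Fisher's exact test). The log2 ratio was -0.13 with TMM factors, which ended the call, and -0.84 without genomic models, a class explained below.

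Slc25a4 and Slc25a5 are the adenine nucleotide translocases, which exchange cytosolic ADP for matrix ATP. Slc25a4, the form of heart and muscle, had 469 reads (623 CPM) in replicate 1 and 401 (331 CPM) in replicate 2. It was called lower in replicate 2, at -0.91 ± 0.10 (adjusted p = 3.68e-19 by Fisher's exact test). Slc25a5, the more widely used form, had 717 reads (953 CPM) and 1065 reads (879.7 CPM), a log2 ratio of -0.12 ± 0.07 that was not called (adjusted p = 0.199). It turned sign with TMM factors and was then called higher. Slc25a5 outnumbered Slc25a4 in both libraries: the ratio of Slc25a4 to Slc25a5 reads was 0.654 (0.581 to 0.736) in replicate 1 and 0.377 (0.335 to 0.423) in replicate 2. These intervals did not overlap. The skeletal muscle markers were also higher in replicate 1 (4136 against 1.65 CPM), as were the sums of the adrenal cortex, adrenal medulla and fat markers. Their part in the Slc25a4 level was not tested. Slc25a5 has near-identical copies in the genome, so its reads are less certain, although its annotated copy Slc25a5-ps took 2 reads in each library. The testis form Slc25a31 had no read.

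The ATP-Mg/phosphate carriers load the matrix with adenine nucleotides. Slc25a25 had 36 reads (47.8 CPM) in replicate 1 and 87 (71.9 CPM) in replicate 2, and was not called (log2 ratio 0.58 ± 0.28). Slc25a23 (14.6 and 17.3 CPM) and Slc25a24 (18.6 and 8.26 CPM) were lower than Slc25a25 in both libraries and not called. Slc25a41 had no read. Slc25a25 was the leading carrier of this kind in both libraries, with 0.389 Slc25a24 reads for each of its own in replicate 1 (0.194 to 0.739) and 0.115 in replicate 2 (0.0532 to 0.222).

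The carriers of carboxylates reached 949 and 776 CPM in all. None of 6 tested members was called higher and 2 were called lower, beside 11.5% and 25.3% of all genes tested. Slc25a1, the citrate carrier that exports carbon for lipid and sterol synthesis, had 380 reads (505 CPM) and 508 reads (419.6 CPM). Its call as lower (log2 ratio -0.27 ± 0.10, adjusted p = 0.0224 by Fisher's exact test) was lost and its sign turned with TMM factors (0.08) and size factors (0.14). Slc25a11, the oxoglutarate/malate carrier of the malate-aspartate shuttle, had 222 and 190.0 CPM and was not called. Slc25a10, the dicarboxylate carrier, was nearly level, with 77 reads (102 CPM) and 126 reads (104 CPM), or 103 ± 1.23 CPM.

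Slc25a30, a relative of the uncoupling proteins, had 44 reads (58.5 CPM) and 26 reads (21.5 CPM). It was called lower at -1.43 ± 0.35 (adjusted p = 2.12e-04 by Fisher's exact test). Its relative Slc25a14 (19.9 and 9.09 CPM) and Slc25a35 (37.2 and 22.3 CPM) were not called at these depths. Under 10 reads in all were found for Slc25a27 (2 and 6), Slc25a21 (0 and 5) and Slc25a34 (1 and 0), which were not tested.

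The group listed here as carriers of amino acids and carnitine held the 3 highest ratios of the family. The sum of the group went from 485 CPM in the first library to 1358 CPM in the second. In it, 4 of 11 tested members were called higher and 2 lower, beside 11.5% and 25.3% of all genes tested. The 4 higher ones were Slc25a47, Slc25a13, Slc25a15 and Slc25a20. Slc25a47 is a carrier known for its high level in liver. Its place in this group comes from the list of roles used here, and its substrate was not tested. Slc25a47 gave 517 of the group's 1644 reads in replicate 2. It had 3 reads (3.99 CPM) in replicate 1 and 517 reads (427 CPM) in replicate 2, a ratio of 107 with a counting interval from 36.4 to 521 (adjusted p = 6.59e-101 by Fisher's exact test). In replicate 1 it stood at the limit that a count of 0 allows, and in replicate 2 it was the third most abundant member.

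Slc25a15, the ornithine carrier of the urea cycle, had 28 reads (37.2 CPM) and 345 reads (285 CPM). Its log2 ratio was 2.91 ± 0.28 (adjusted p = 6.71e-41 by Fisher's exact test). The second ornithine carrier, Slc25a2, had no read in either library. Slc25a20 exchanges acylcarnitine for carnitine and so feeds fatty acid oxidation. It had 49 reads (65.1 CPM) and 314 reads (259 CPM), a log2 ratio of 1.98 ± 0.22 (adjusted p = 5.0e-24). The liver markers differed the same way, at 5.32 and 49416 CPM, and their part in these 4 differences was not tested.

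Slc25a12 and Slc25a13 are the aspartate/glutamate carriers of the malate-aspartate shuttle, the first known from muscle and brain and the second, citrin, from liver. They changed places between the libraries. Slc25a12 had 63 reads (83.7 CPM) in replicate 1 and 49 (40.5 CPM) in replicate 2, and was called lower at -1.05 ± 0.27 (adjusted p = 6.71e-04 by Fisher's exact test). Slc25a13 had 7 reads (9.30 CPM) and 126 reads (104 CPM), and was called higher at 3.39 ± 0.54 (adjusted p = 1.71e-17). For each Slc25a13 read there were 9.0 Slc25a12 reads (4.12 to 23.3) in replicate 1 and 0.389 (0.274 to 0.545) in replicate 2. As the scale cancels in this ratio, it did not depend on the scaling.

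Among the other amino acid carriers, Slc25a44, which carries branched-chain amino acids, had 76 reads (101 CPM) and 74 reads (61.1 CPM). It was called lower at -0.72 ± 0.23 (adjusted p = 0.00874 by Fisher's exact test), a call that TMM factors ended. Of its reads, 23 and 34 sat on a genomic model, a class explained below. Without genomic models its log2 ratio was -1.14. The glutamate carrier Slc25a22 had 97.0 and 88.4 CPM and was not called, while its paralog Slc25a18 had no read. Slc25a29, a carrier of basic amino acids (43.9 and 34.7 CPM), Slc25a38, a glycine carrier needed for heme synthesis (23.9 and 33.9 CPM), Slc25a45 (18.6 and 16.5 CPM) and Slc25a48 (1 and 9 reads) were not called.

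Of the 11 tested carriers of cofactors and nucleotides, 6 were called lower and 2 higher, beside 25.3% and 11.5% of all genes tested. The sums of this group were 1108 and 852 CPM. Slc25a51, the NAD carrier of the matrix, had 188 reads (249.9 CPM) and 114 reads (94.2 CPM). It was called lower at -1.41 ± 0.17 (adjusted p = 9.34e-16 by Fisher's exact test), and its log2 ratio was -1.06 with TMM factors. Slc25a36, a pyrimidine nucleotide carrier, had the lowest ratio of the called members, with 27 reads (35.9 CPM) and 9 reads (7.43 CPM), a log2 ratio of -2.22 ± 0.54 (adjusted p = 9.79e-05). Its paralog Slc25a33 had 90.4 and 43.8 CPM and was called lower at -1.04 ± 0.26 (adjusted p = 3.97e-04).

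Slc25a16, linked to coenzyme A in the matrix, had 75.8 and 33.9 CPM and was called lower at -1.16 ± 0.29 (adjusted p = 5.09e-04 by Fisher's exact test). Slc25a17, a carrier of the peroxisome, had 129 and 76.8 CPM (-0.75 ± 0.21, adjusted p = 0.00191). The sum of the adrenal cortex markers was also lower in replicate 2 (25828 against 63352 CPM), although Mc2r was higher there (55.3 against 39.9 CPM, not called). The sums of the muscle, adrenal medulla (7816 against 11505 CPM) and fat markers (3043 against 4228 CPM) were lower as well. The median log2 ratio of all genes tested was -0.34. The part of these marker lists in the differences was not tested.

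Slc25a39, the glutathione carrier, had the highest mean level of this group, although Slc25a51 was above it in replicate 1 (249.9 CPM). Slc25a39 had 161 reads (214 CPM) in replicate 1 and 476 reads (393 CPM) in replicate 2. It was called higher in replicate 2, at 0.87 ± 0.13 (adjusted p = 5.70e-11 by Fisher's exact test). Its paralog Slc25a40 had 9 and 4 reads and was not called. Slc25a26, the S-adenosylmethionine carrier, had 2 reads and 16 reads, a ratio of 4.97 with a counting interval from 1.17 to 44.6 (adjusted p = 0.0435 by Fisher's exact test). Slc25a32, which carries folate (42.5 and 36.3 CPM), and Slc25a42, a coenzyme A carrier (17.3 and 11.6 CPM), were not called. Without genomic models Slc25a42 was called lower.

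Slc25a28 and Slc25a37 are the mitoferrins, which bring iron into the matrix. Slc25a28 had 45 reads (59.8 CPM) and 43 reads (35.5 CPM) and was called lower (log2 ratio -0.75 ± 0.31, adjusted p = 0.0435 by Fisher's exact test). Slc25a37, the form known from red cell precursors, had 4 and 11 reads and was not called. Slc25a46, a member of the outer membrane tied to the shape of mitochondria, had 83 reads (110.3 CPM) and 108 reads (89.2 CPM) and was not called, but with known models alone it was called lower (-0.66). Slc25a53 (5 and 3 reads) and Slc25a43 (0 and 2) were not tested, and Slc25a54 had no read.

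Family proteins under other symbols were given for comparison. Ucp1, the uncoupling protein of brown fat, had 587 reads (780.1 CPM) and 578 reads (477 CPM), beside the fat markers at 4228 and 3043 CPM, a list that itself holds Ucp1. Ucp1 and Ucp2 were called lower, and Ucp3, Mtch1 and Mtch2 were not called, with Mtch1 at 610.0 and 641 CPM.

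Each read belonged to a transcript model that the deposited annotation puts in a class: known, partial match to a known chain (ISM), a new joining of known splice sites (NIC), a new splice site (NNC), or genomic, for models that overlap a gene without fitting the splice classes. Known models took 79.4% of member reads in replicate 1 and 76.9% in replicate 2, near 77.0% and 75.6% over all genes. Genomic models took 8.72% (7.89 to 9.61) and 10.5% (9.78 to 11.3) of member reads, beside 3.78% and 5.0% over all genes. ISM models took 4.63% and 5.18%, beside 9.44% and 11.9%. Slc25a3 and Slc25a5 supplied most of the genomic reads, 262 and 189 of 681 in replicate 2 and 8 and 234 of 371 in replicate 1. Of 182 NNC chains of members, 136 had 1 read, and of the 46 with more, 26 were read in both libraries (56.5%, beside 50% over all genes). Of 126 NIC chains, 82 had 1 read, and of the 44 with more, 27 were read in both (61.4%, beside 58.5%).

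Models were joined across libraries by their chain of introns, with the single-exon models of a gene taken as 1 chain. Among the 24 members that had 20 or more reads in both libraries, the leading chain held a median of 73.7% of pooled reads, beside 73.4% over 5749 genes. It held under 50% in 3 of the 24 (Slc25a22, Slc25a25 and Slc25a44), beside 23.1% of all such genes. The share of the leading chain was tested between libraries in 19 members by Fisher's exact test (two-sided, adjusted over all genes tested), and it differed in 5, beside 14.9% of all 4675 genes. These were Slc25a5, Slc25a3, Slc25a12, Slc25a1 and Slc25a46.

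**Figure D3:**
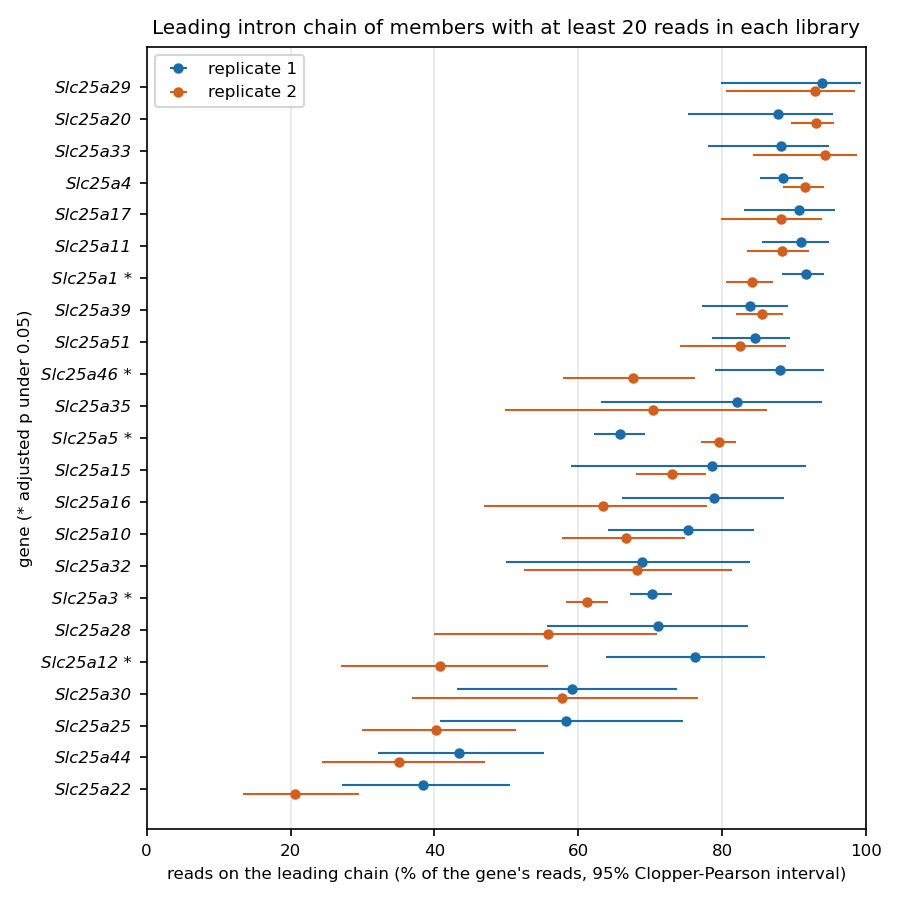
Reads on the leading intron chain as a percent of the gene's reads (horizontal axis) in replicate 1 (blue) and replicate 2 (orange), with 95% Clopper-Pearson intervals, for 23 members that reached 20 reads in both. Asterisks mark the 5 members whose share differed between the libraries, and Slc25a22 has the lowest share.

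Slc25a3 carries a choice of exons that is known to set apart a muscle form (exon 3A) and a general form (exon 3B) of the phosphate carrier. Both exons are coding and lie on the minus strand of chromosome 10 (mm10), between the same neighbours: exon 3A at chr10:91122207-91122331 (125 bases) and exon 3B at chr10:91121922-91122043 (122 bases). Their sequences from GENCODE transcripts are shown because they tell these forms of the most abundant carrier apart. Of 121 aligned bases, 80 were identical (66.1%).
Slc25a3 exon 3A: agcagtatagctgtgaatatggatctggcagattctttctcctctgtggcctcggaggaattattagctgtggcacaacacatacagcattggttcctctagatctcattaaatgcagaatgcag
Slc25a3 exon 3B: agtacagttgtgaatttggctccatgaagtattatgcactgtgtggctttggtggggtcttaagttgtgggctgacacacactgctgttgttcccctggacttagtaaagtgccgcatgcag

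Exon 3B dominated in both libraries. Of reads with either exon spliced on both sides, 817 of 843 held exon 3B alone in replicate 1 (96.9%, interval 95.5 to 98.0) and 765 of 776 in replicate 2 (98.6%, 97.5 to 99.3). Exon 3A alone was in 12 reads (1.42%, 0.738 to 2.47) and 3 reads (0.387%, 0.0798 to 1.13). Both exons together were in 14 reads and 8 reads. Any exon 3A was thus in 3.08% (2.02 to 4.49) of such reads in replicate 1 and 1.42% (0.710 to 2.52) in replicate 2, intervals that overlap. The skeletal muscle markers were at 4136 and 1.65 CPM, and their part in the exon 3A reads was not tested.

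The leading chain of Slc25a3 was the annotated transcript Slc25a3-201 of 8 exons, with 672 of 957 reads (70.2%) in replicate 1 and 678 of 1107 (61.2%) in replicate 2 (adjusted p = 3.79e-04 by Fisher's exact test). The lower share in replicate 2 rested on 262 reads of a single-exon genomic model of 438 bases at chr10:91116574-91117011, inside the last exon of the gene. Replicate 1 had 8 single-exon reads. Without genomic and single-exon models the direction turned, to 70.8% in replicate 1 and 80.2% in replicate 2 (adjusted p = 1.26e-04). Slc25a3-203, which keeps the first intron, had 115 reads (12%) in replicate 1 and 64 reads (5.78%) in replicate 2, with intervals that did not overlap (10 to 14.2 and 4.48 to 7.32).

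Slc25a5 also turned on single-exon reads. Slc25a5-201, with 4 exons, held 472 of 717 reads (65.8%) in replicate 1 and 847 of 1065 (79.5%) in replicate 2 (adjusted p = 7.89e-09 by Fisher's exact test). A single-exon genomic model took 234 reads (32.6%) and 189 reads (17.7%). It covered 3157 bases in replicate 1, the whole gene at chrX:36795651-36798807, and 3154 in replicate 2. By these bounds the model takes in the intron sequence that Slc25a5-201 leaves out, but the extent of each read was not examined. Without genomic and single-exon models the shares were 97.7% and 96.7% and were not called (adjusted p = 0.675). Slc25a4 had a single-exon model too, with 46 and 30 reads, and its 4-exon chain held 88.5% and 91.5%.

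**Figure D4:**
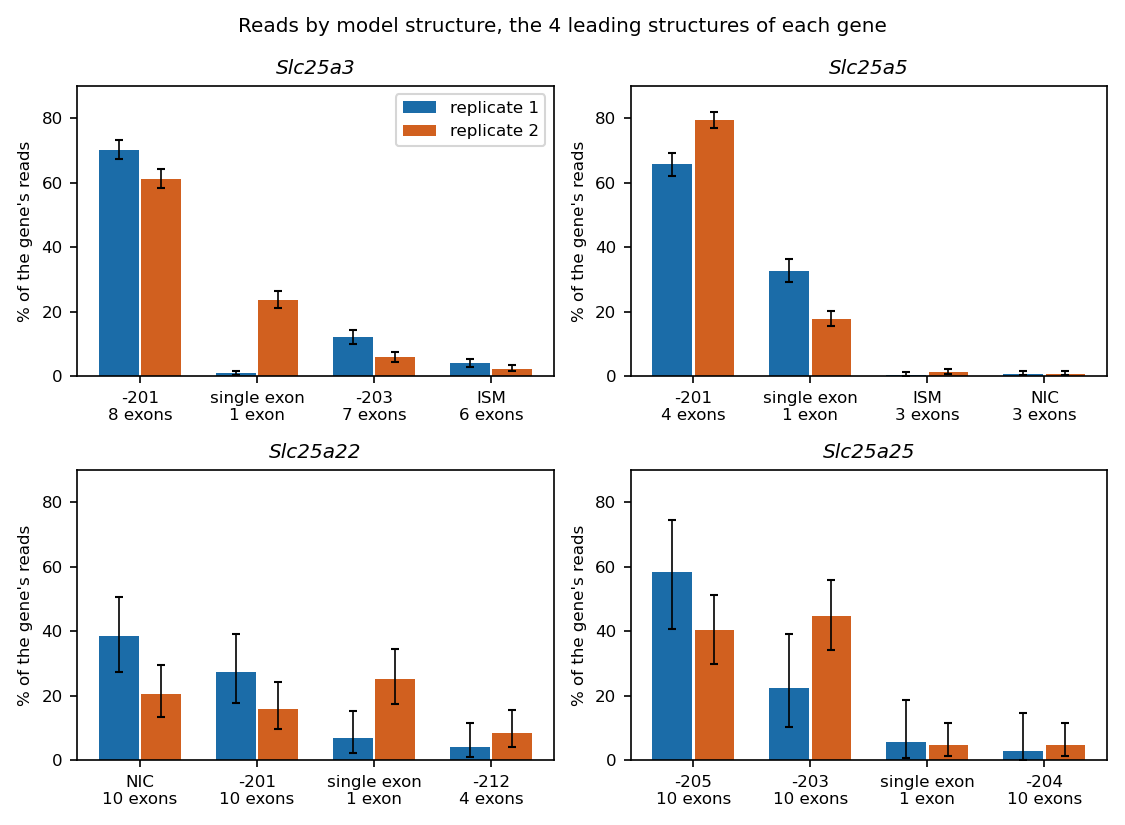
Percent of the gene's reads (vertical axis) on the 4 leading structures of Slc25a3, Slc25a5, Slc25a22 and Slc25a25 in replicate 1 (blue) and replicate 2 (orange), with 95% Clopper-Pearson intervals. Labels give the annotated transcript number or class and the exon count, and the single-exon structure of Slc25a3 stands at 0.836% and 23.7%.

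Slc25a12-206, the leading chain of Slc25a12 with 18 exons, held 48 of 63 reads (76.2%) in replicate 1 and 20 of 49 (40.8%) in replicate 2 (adjusted p = 0.00261 by Fisher's exact test). An ISM chain of 12 exons, which lacks part of the full chain, had 0 and 9 reads. This difference held without genomic and single-exon models (77.4% and 43.5%, adjusted p = 0.00766). Slc25a1-201 held 91.6% and 84.1% (adjusted p = 0.00831) and Slc25a46-201 held 88.0% and 67.6% (adjusted p = 0.0105). Both calls ended when genomic and single-exon models were left out.

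Slc25a13 was read mostly from an unannotated splice site. Its leading chain, an NNC model of 18 exons, had 4 reads in replicate 1 and 74 in replicate 2, and Slc25a13-201, also of 18 exons, had 0 and 19. They differed at the start of exon 10 (chr6:6109937-6110024, minus strand, coding, 88 bases), where the leading chain began 3 bases further in. Over all spliced reads across that junction, 6 of 6 used the inner site in replicate 1 (interval 54.1 to 100%) and 94 of 116 in replicate 2 (81.0%, 72.7 to 87.7). The annotated junction is shown from GENCODE, 12 bases of exon 9 and then exon 10, with the 3 bases that the leading chain leaves out in capitals.
Slc25a13 exon 9 to exon 10: gcccagaggcagCAGaaggcctcgggtgat
A step of 3 bases leaves the reading frame as it was. Reads of the parental strains were not told apart here.

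Slc25a25 was read from 3 first exons that join the same second exon. The distal one (Slc25a25-205) had 21 reads in replicate 1 and 37 in replicate 2, the proximal one (Slc25a25-203) 8 and 39, and Slc25a25-204 had 1 and 4. As chains, Slc25a25-205 held 58.3% (40.8 to 74.5) and 40.2% (29.9 to 51.3) of reads and Slc25a25-203 held 22.2% (10.1 to 39.2) and 44.8% (34.1 to 55.9), and the leading-chain share was not called (adjusted p = 0.262 by Fisher's exact test). The annotated starts lay 25 and 61 bases downstream of the nearest RefSeq starts. The 250 bases before each RefSeq start (GRCm38.p6, minus strand, distal at chr2:32451471-32451720 and proximal at chr2:32424067-32424316) are shown because the gene's reads divide between them. The motif TGACGTCA, the cyclic AMP response element and its own reverse complement, is in capitals.
Slc25a25 distal: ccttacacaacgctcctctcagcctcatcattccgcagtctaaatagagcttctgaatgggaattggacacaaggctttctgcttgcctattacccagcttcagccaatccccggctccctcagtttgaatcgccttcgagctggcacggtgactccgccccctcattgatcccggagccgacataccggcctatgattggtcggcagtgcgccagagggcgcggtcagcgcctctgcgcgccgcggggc
Slc25a25 proximal: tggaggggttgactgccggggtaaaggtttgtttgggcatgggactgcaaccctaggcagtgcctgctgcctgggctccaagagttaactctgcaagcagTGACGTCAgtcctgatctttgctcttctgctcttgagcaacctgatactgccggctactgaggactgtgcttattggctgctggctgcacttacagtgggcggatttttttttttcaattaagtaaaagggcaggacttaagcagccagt
The motif was found once in the proximal sequence, 142 bases before the start, and not in the distal one. It was in 1.79% of all 32851 RefSeq promoter windows, which run from 250 bases before to 50 after a start. Of the 46 windows of members (36 genes), 2 held it (4.35%), those of Slc25a25 and Slc25a36.

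Slc25a22 had the lowest leading share of the members with 20 reads or more in both libraries, at 27.8% of pooled reads. An NIC chain of 10 exons led in replicate 1 and in the pooled reads, with 28 of 73 reads (38.4%) in replicate 1 and 22 of 107 (20.6%) in replicate 2 (adjusted p = 0.0672 by Fisher's exact test). It shared all introns but the first with Slc25a22-201, which had 20 and 17 reads, so these chains differed in their first exon. Their starts lay 34 and 18 bases from RefSeq starts of the gene. Slc25a22-221 is annotated as a retained intron, and its model is 1 exon of 5590 bases. It had 5 reads in replicate 1 and 27 in replicate 2 (25.2%), where it was the leading structure.

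Slc25a44-201 held 33 and 26 reads (43.4% and 35.1%), as many in all as single-exon models, with 23 and 36. Most of these single-exon reads, 23 and 34, sat on a genomic model that the files give as 2 bases long. In Slc25a15, the chain Slc25a15-201 held 22 of 28 reads (78.6%) and 252 of 345 (73.0%), and an NNC chain with another end of the first exon had 4 and 30. Slc25a28 had an NIC chain of 3 exons with 8 and 7 reads beside Slc25a28-201 with 32 and 24. The main chain of Slc25a47, Slc25a47-201 with 6 exons, held 455 of 517 reads in replicate 2 and none of the 3 in replicate 1.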

How the data were processed

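Total RNA of adrenal gland was read as long-read libraries. The authors deposited read counts per transcript model for each library separately, without normalization, with an annotation whose attribute names are those of TALON. Coordinates are mm10 and gene models GENCODE M21, per the file headers. The aligner, the tool versions and any merging of PCR copies stand as not given in the sources used here. The deposited annotation coordinates were used for exons and introns.

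Counts were summed per gene, and CPM used reads in annotated mouse genes, without spike-ins (11058 and 17139 reads) and other loci (30509 and 62532). Log2 ratios used a prior of 0.5 reads. The ratios of 107 for Slc25a47 and 4.97 for Slc25a26 used no prior, and with it they were 91.9 and 4.10. With 1 library a side there were no residual degrees of freedom and no quasi-likelihood fit, so Fisher's exact tests (SciPy 1.17.1, two-sided, Benjamini-Hochberg over all genes with at least 10 reads) compared the libraries. Leading chains were tested where both libraries had 20 reads or more and 2 chains reached 5 pooled reads. Intervals are Clopper-Pearson. The tests were checked on simulated counts that held counting error alone. That check does not cover the difference in tissue makeup between these libraries. Alternatives were TMM factors (edgeR 4.0.16), size factors (DESeq2 1.42.0), other read minimums, a prior of 2 reads, known models alone, genomic or single-exon models left out, genes over 10-fold different left out of the total, and each library left out. Exon sequences are from GENCODE transcripts and promoters from RefSeq (36 members matched). A global alignment gave exon identity (Biopython 1.88). A planned description of protein features was not run.

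By the naming rule every member is named, and 1 member is not reported here. Fuller values are given for members with a mean of at least 50 CPM, at least 2-fold and called, with a leading-chain difference, or with a leading chain under 50%. For some of these the reads, the CPM, the log2 ratio or the p-value is left out. Members and lists were chosen with earlier results of these data known.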

Additional observations from a re-analysis of the deposited data

Results flagged for a closer look

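Models that the authors class as antisense, which are outside the gene counts above, overlapped members on the opposite strand with 53 reads over 16 members in replicate 1 (70.4 CPM) and 136 reads over 25 members in replicate 2 (112 CPM). Both sums are above the 3 reads that a count of 0 allows, but that limit is for a single count. How many of all genes have such reads was not counted, so no trait of the family can be read from these sums. No control sample exists to compare them with. The members with the most such reads were Slc25a30 (4 and 21), Slc25a37 (10 and 21), Slc25a3 (15 and 10) and Slc25a46 (6 and 11), chosen after their values were seen. For Slc25a37 these outnumbered the gene's own reads (4 and 11).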

How the results depend on the processing

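The number of members called higher was 6, and with all alternatives it stayed between 5 and 8. It was 8 with TMM factors, with DESeq2's size factors and with genes over 10-fold different left out of the total. These counts stand beside 17.7%, 19.3% and 17.9% of all genes (11.5% before). It was 7 without genomic models, 5 with known models alone and 5 with a 2-fold minimum, beside 12.1%, 11.5% and 8.96%. The number called lower was 13, and it was 8 with TMM factors, 6 with DESeq2's size factors, 8 with genes over 10-fold different left out of the total, and 6 with a 2-fold minimum, beside 13.7%, 12.2%, 13.6% and 15.5% of all genes (25.3% before). It was 14 with known models alone, with Slc25a46 gained, and 14 without genomic models, with Slc25a42 gained, beside 28.8% and 27.4%. Slc25a26 lost its call as higher with known models alone. The family log2 ratio of -0.08 turned to 0.27, 0.32 and 0.28 with TMM factors, size factors and those genes left out. Under the same 3 settings, in that order, these ratios turned positive: Slc25a1 to 0.08, 0.14 and 0.09, Slc25a5 to 0.23, 0.29 and 0.24, Slc25a11 to 0.12, 0.18 and 0.13, Slc25a22 to 0.21, 0.27 and 0.22, Slc25a29 to 0.01, 0.06 and 0.01, Slc25a32 to 0.12, 0.17 and 0.12, Slc25a45 to 0.16, 0.22 and 0.17, and Slc25a46 to 0.04, 0.10 and 0.05. With known models alone Slc25a5 was at 0.18, Slc25a10 at -0.16, Slc25a22 at 0.10 and Slc25a45 at 0.11. Without genomic models Slc25a5 was at 0.19, called higher, and Slc25a10 at -0.09.

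Members whose leading-chain share differed numbered 5 (14.9% of all genes). They were 2 without genomic and single-exon models (10.5%) and 1 with known models alone (5.66%), where only 6 members could be tested. The median share of 73.7% was 83.5% without genomic and single-exon models and 80.1% with at least 50 reads in each library. Leaving out each library in turn gave 71.7% to 78.8% for that median and 5346 to 5654 CPM for the family. Members read in both libraries numbered 39, and 36 with at least 3 reads in each. The cause of these shifts was not tested.

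Precision followed depth: the counting SE of a log2 ratio ran from 0.06 in Slc25a3 to 1.27 in Slc25a48, so an uncalled member is not shown to be level. No paired analysis was possible because there is 1 group.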
